A study of Homo sapiens with 12 samples.

Results

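The genes described here sense viral RNA, pass on the interferon signal or are switched on by it. They are 52 genes named by symbol, and members were the rows of the deposited count table whose Ensembl identifiers carried those symbols in GENCODE release 44. Of the 52 genes, 51 had a row among the 63541 rows of the table, and IRF9 was not analysed here. The 44 genes with enough reads were tested, and the other 7, IRF7, OAS2, MX2, IFI44, RSAD2, PARP14 and PSMB8, were too low to measure. The cells were HEK293T, a human embryonic kidney line that carries the SV40 large T antigen. All 12 libraries came from cells transfected with 12.5 nM siRNA by means of a lipid reagent and collected 48 h later. The siRNA was a scrambled sequence in 3 libraries (scramble), and one of 3 siRNAs against snaR-A, a small noncoding RNA made by RNA polymerase III, in 3 libraries each, named si-snaR-A#1, si-snaR-A#2 or else si-snaR-A#3. Every group, scramble included, thus received a duplex RNA and the transfection reagent, and an untransfected culture was not analysed here.

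Viral RNA in the cytoplasm is bound by the helicases RIG-I (RIGI) and MDA5 (IFIH1), which signal through MAVS on mitochondria to the kinase TBK1 and the transcription factor IRF3, whereas TLR3 binds double-stranded RNA in endosomes. The interferon made in response binds the receptor chains IFNAR1 and IFNAR2, and the kinases JAK1 and TYK2 then activate STAT2. Together with IRF9 this factor is part of a complex that binds the interferon-stimulated response element in the promoters of antiviral genes such as those of the OAS, IFIT, IFITM and MX families. Many of these genes also have a basal level in cells that have met no virus.

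The libraries held 120 M to 180 M estimated reads, so that 3 counts in a library corresponded to 0.0162 to 0.0242 CPM, that is counts per 1e+06 counts in the scaled library. Of 8 genes chosen as markers of the line, 6 were detected well enough to test, with VIM the highest, and PAX8 and KRT19 were not. The summed level of the line's markers was 967 to 1053 CPM in scramble, 916 to 1041 under si-snaR-A#1, 1458 to 1474 under si-snaR-A#2 and 1165 to 1247 under si-snaR-A#3. Its members did not move together. With si-snaR-A#2, VIM, NEFM and NEFL were called higher (log2 fold changes of 0.47, 0.79 and 0.52). PAX2, KRT8 and KRT18 were not called with that siRNA (-0.14, -0.06 and -0.06). The summed level of 8 leukocyte markers was 1.63 to 1.77 CPM in scramble and 1.33 to 1.58, 1.15 to 1.23 and 1.59 to 1.85 CPM under the 3 siRNAs in order, with PTPRC at 0 to 18 counts and CD3E at 0 or 1. That of 7 fibroblast and endothelial markers was 34.8 to 37.2 CPM in scramble and 33.8 to 34.9, 33.3 to 38.2 and 31.0 to 31.8 CPM, but its members moved in opposite directions. The collagen gene COL1A1 was lower with all 3 siRNAs (log2 fold changes of -0.17, -0.34 and -0.90) and COL3A1 higher (0.31, 0.53 and 0.81), and LUM was higher with the last 2 (0.80 and 0.85). At 2 to 52 counts in a library, DCN was lower with the first (-2.51). VWF was lower with the third (-4.64 ± 1.62, SE), near the floor, at 48, 3 and 21 counts in scramble and 0, 1 and 1 under si-snaR-A#3. The part of other cell types in the results was not tested, and in bulk RNA fewer cells that express a gene and less of its RNA per cell cannot be told apart. The share of reads from mitochondrial genes ranged from 3.66% to 4.53% with si-snaR-A#1 and from 4.06% to 6.05% in the other groups, and its part in the results was not tested. No row of the table was matched to snaR-A itself, so that its level was not analysed here and the labels were not checked against it.

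The basal levels of the 51 genes spanned 4 orders of magnitude per length in scramble. IFITM1, which restricts the entry of enveloped viruses, was the highest at 18.7 ± 0.891 CPM per kb of exon (SD, n = 3), followed by IRF3 at 14.7 ± 0.399. MAVS (8.1 ± 0.896), JAK1 (7.7 ± 0.289) and IFI6 (7.14 ± 0.462) came next, and each of these neighbours in the order lay within the sum of their SDs. The sensors were far lower, with IFIH1 at 0.323 ± 0.0217 CPM per kb, TLR3 at 0.197 ± 0.0542 and RIGI at 0.192 ± 0.0128, and TLR3 and RIGI did not differ beyond their spread. Several genes that respond strongly to interferon were lower still, as MX1 was at 0.0238 ± 0.00243 CPM per kb and OAS1 at 0.0224 ± 0.0023. The 7 genes not tested had 0 to 32 counts in any library. Among the tested genes 10 averaged under 1 CPM and 34 averaged 1 CPM or more.

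**Figure D1:**
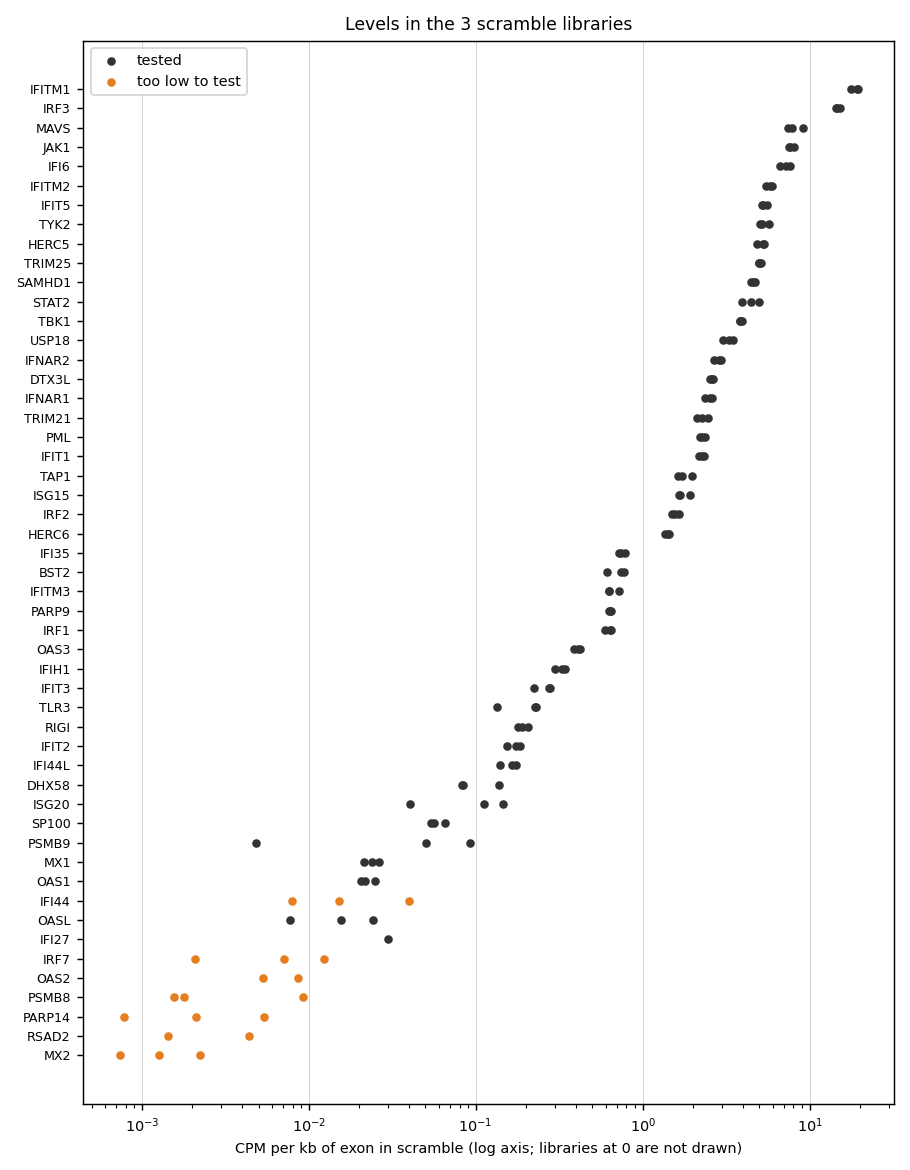
Level of each of the 51 genes in the 3 scramble libraries, in CPM per kb of exon on a log axis, ordered by the mean. Points are libraries, and orange marks the 7 genes too low to test. IFITM1 and IRF3 stand at the top, and RIGI and TLR3 sit near 0.2 CPM per kb.

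Most of the tested genes were lower with si-snaR-A#1 than in scramble, among them sensors (TLR3, IFIH1), a regulatory factor (IRF2) and antiviral effectors (OAS3, IFIT2, IFIT3). Fewer were lower with si-snaR-A#2, and under si-snaR-A#3 there were 6 higher and 5 lower. A gene was called when edgeR's quasi-likelihood test gave an adjusted p under 0.05, with the adjustment over all 21999 genes tested. With si-snaR-A#1, 26 of the 44 tested genes were lower than in scramble and 2 were higher, a total of 28. Of all genes, 45.2% were called, 23.3% lower and 21.9% higher. With si-snaR-A#2, 13 were lower and 2 were higher, a total of 15, where 25.8% of all genes were called, 12.1% lower and 13.7% higher. With si-snaR-A#3, 5 were lower and 6 were higher, a total of 11, where 29.4% of all genes were called, 13.0% lower and 16.5% higher. The median log2 fold change (log2FC) of the 44 genes was -0.34, -0.15 and 0.02 for the 3 siRNAs in that order, where the median over all genes was -0.02, -0.03 and -0.03. More than 2-fold lower levels were called for 8 genes with si-snaR-A#1, among them PSMB9 with few counts, and for 1 with each of the other siRNAs. The share of all genes past this 2-fold cut was not analysed here, so these counts have no background to be read against.

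The split of the si-snaR-A#3 calls by direction depended on the scaling and the test. With upper quartile scaling 5 genes were higher and 8 lower with si-snaR-A#3, and with DESeq2 10 were higher and 5 lower. The count with si-snaR-A#2 fell from 15 to 9 without scramble replicate 2, to 8 without si-snaR-A#2 replicate 2 and to 9 without si-snaR-A#2 replicate 3.

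Averaged over the 3 siRNAs, 17 genes were lower and 2 higher than in scramble, where 32.2% of all genes were called, 16.6% lower and 15.6% higher. By edgeR's exact test, with the 9 siRNA libraries taken as 1 group, only 1 gene, IFIT3, was called. That fit puts the differences among the siRNAs into the spread within the group. The siRNAs did differ, as described below for each gene. Of the 44 genes 1, OAS3, was lower with all 3, which was the case for 2.84% of all genes. In the edgeR test 0 of the 44 genes were higher with all 3, where 5.16% of all genes were. The 3 siRNA comparisons share the scramble libraries and are given side by side.

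**Figure D2:**
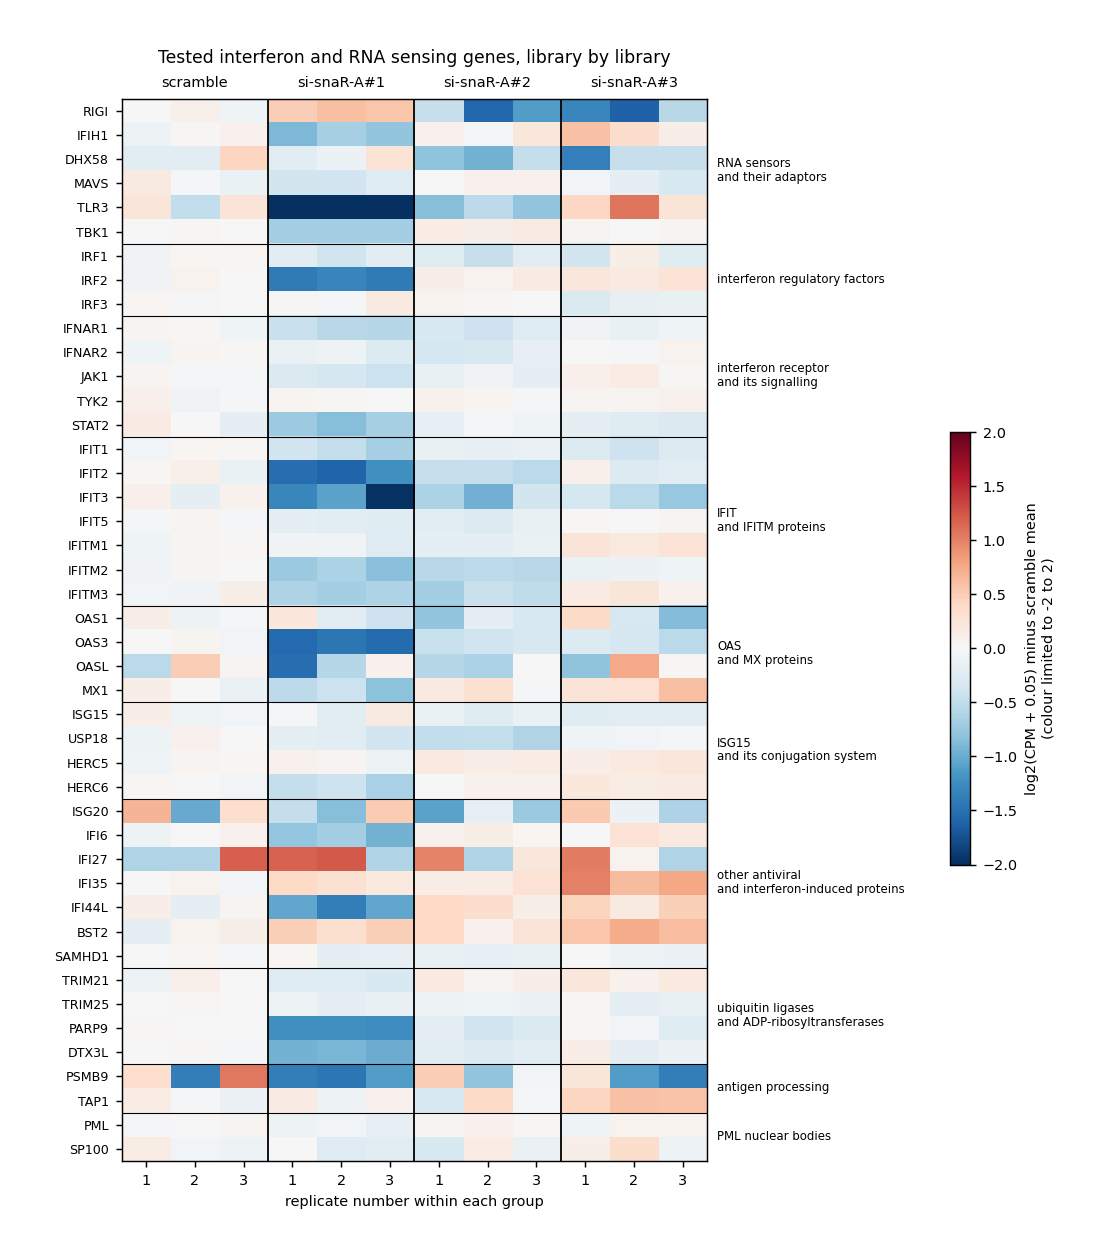
Level of the 44 tested genes in each of the 12 libraries as log2(CPM + 0.05) minus the mean of the 3 scramble libraries, with the colour limited to -2 to 2. Rows are grouped by role, and columns are the replicates of each group. The 3 si-snaR-A#1 libraries are blue for TLR3, IRF2, IFIT2, IFIT3, OAS3, IFI44L, PARP9 and DTX3L, and red for RIGI.

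Promoter sequences are shown for genes that were lower with si-snaR-A#1 and for others that were not, as several carry the letters of an interferon-stimulated response element. Of the 52 genes, 40 had a promoter in the RefSeq table for GRCh38.p14, which holds 250 bases before and 50 after each start. The letters GAAA, any 2 bases and GAAA again, were searched on both strands with overlapping matches kept. They were present in 24 of these 40 genes (60.0%) and in 3.57% of the 35116 promoters of that table. A gene counted when any of its promoters matched, and some of the genes have several. The share of genes and the share of promoters are thus in unlike units, here and for the next letters. TTCNNNGAA, the letters of an interferon-gamma activated site, which read the same on both strands, were present in 12 of the 40 genes (30.0%) and in 7.66% of all promoters. Windows around a match are given 5′ to 3′ on the strand of the gene, with the matched letters in capitals. The first 5 belong to genes that were lower with si-snaR-A#1, namely TLR3, IFIT3, OAS3, PARP9 and IFI6. The last pair belong to ISG15, which was not called with any siRNA, and BST2, which was higher with si-snaR-A#1.
TLR3, chr4:186069132-186069181, plus strand: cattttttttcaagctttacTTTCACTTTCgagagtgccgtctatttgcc
IFIT3, chr10:89327855-89327904, plus strand: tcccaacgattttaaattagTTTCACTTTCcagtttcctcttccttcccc
OAS3, chr12:112938311-112938360, plus strand: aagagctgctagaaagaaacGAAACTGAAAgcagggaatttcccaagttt
PARP9, chr3:122564312-122564361, minus strand: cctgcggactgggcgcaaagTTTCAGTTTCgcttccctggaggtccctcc
IFI6, chr1:27672319-27672368, minus strand: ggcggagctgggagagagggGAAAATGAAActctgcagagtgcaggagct
ISG15, chr1:1013370-1013419, plus strand: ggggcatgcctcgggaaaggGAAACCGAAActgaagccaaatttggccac
BST2, chr19:17405731-17405780, minus strand: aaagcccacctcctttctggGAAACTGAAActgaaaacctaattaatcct

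The PARP9 match lies where the promoter windows of PARP9 and DTX3L, which are transcribed in opposite directions, overlap, so that both windows hold it. Among the tested genes with a promoter in the table, 20 held these response element letters and 15 did not. Of all genes, 23.3%, 12.1% and 13.0% were lower and 21.9%, 13.7% and 16.5% higher with the 3 siRNAs in order. With si-snaR-A#1, 13 of the 20 were lower and 1 was higher, with a median log2 fold change of -0.59, and 8 of the 15 were lower and 1 was higher, with a median of -0.28. With si-snaR-A#2, 7 of the 20 were lower and 1 was higher, with a median of -0.16, and 2 of the 15 were lower and 1 was higher, with a median of -0.11. With si-snaR-A#3, 2 of the 20 were lower and 4 were higher, with a median of 0.16, and 2 of the 15 were lower and 1 was higher, with a median of -0.09. The median of the genes with these letters was thus the lower of the pair with si-snaR-A#1 and the higher with si-snaR-A#3, a difference that was not tested. Averaged over the 3 siRNAs, 8 of the 20 were lower and 1 was higher, with a median of -0.161. Of the 15, 4 were lower and 1 was higher in that average, with a median of -0.159. The shares of all genes there were 16.6% lower and 15.6% higher. A match is a description of the letters in these windows and does not show binding.

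Among the 6 RNA sensors and their adaptors, 4 were lower with si-snaR-A#1, namely TLR3, IFIH1, MAVS and TBK1, where 23.3% of all genes were. RIGI was instead lower with the other siRNAs. TLR3 (ENSG00000164342, chr4:186068911-186088073, plus strand), the endosomal receptor for double-stranded RNA, had the largest fall that was separated from scramble in every library. TLR3 was at 1.7, 1.01 and 1.73 CPM in scramble, 0.137, 0.229 and 0.199 under si-snaR-A#1, 0.77, 0.981 and 0.811 under si-snaR-A#2 and 1.93, 3.08 and 1.72 under si-snaR-A#3. All si-snaR-A#1 libraries were far below every other library, and the si-snaR-A#3 libraries overlapped scramble. The log2 fold change was -2.96 ± 0.29 (SE, adjusted p = 3.4e-06) with si-snaR-A#1, a 7.8-fold lower level, -0.79 ± 0.26 (SE, adjusted p = 0.0382) with si-snaR-A#2 and 0.60 ± 0.25 (SE, adjusted p = 0.0951) with si-snaR-A#3. TLR3 was also lower with si-snaR-A#1 than with si-snaR-A#3 by a log2 fold change of -3.56 ± 0.29 (SE, adjusted p = 6.4e-07). The si-snaR-A#2 call was lost without scramble replicate 1 or 3, si-snaR-A#1 replicate 3 or si-snaR-A#2 replicate 1, 2 or 3 (adjusted p = 0.0504 to 0.137).

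RIGI (ENSG00000107201, chr9:32455302-32526208, minus strand), the helicase that recognises the triphosphate end of viral RNA, was highest under si-snaR-A#1, where TLR3 was lowest. RIGI was at 1.96, 2.12 and 1.86 CPM in scramble, 2.8, 3.04 and 2.93 under si-snaR-A#1, 1.42, 0.633 and 0.881 under si-snaR-A#2 and 0.774, 0.608 and 1.33 under si-snaR-A#3. Every si-snaR-A#1 library was above scramble, and every library of the other siRNAs was below it. The log2 fold change was 0.56 ± 0.28 (SE, adjusted p = 0.121) with si-snaR-A#1, which missed the threshold, -1.02 ± 0.29 (SE, adjusted p = 0.0196) with si-snaR-A#2 and -1.13 ± 0.29 (SE, adjusted p = 0.00979) with si-snaR-A#3. The direct comparisons were larger, with RIGI higher with si-snaR-A#1 than with si-snaR-A#2 by log2FC 1.58 ± 0.29 (SE, adjusted p = 5.8e-04) and than with si-snaR-A#3 by 1.70 ± 0.29 (SE, adjusted p = 3.3e-04) on the log2 scale. It was the only one of the 44 genes called higher with si-snaR-A#1 than with both other siRNAs. The si-snaR-A#2 call against scramble was lost without scramble replicate 2 or si-snaR-A#2 replicate 2 or 3 (adjusted p = 0.0573 to 0.0789). Exons of RIGI overlap on the same strand with those of another annotated gene, ENSG00000288684, and reads could be split between them. In all, 24 of the 44 tested genes have exons over another annotated gene, 15 of them over a protein-coding gene, and not all are named here.

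IFIH1, which binds long double-stranded RNA, fell with si-snaR-A#1 and was lower there than with si-snaR-A#2 at log2FC -0.92 ± 0.14 (SE, adjusted p = 1.3e-04). Its levels were 1.57, 1.71 and 1.79 CPM in scramble, 0.877, 1.04 and 0.956 under si-snaR-A#1, 1.8, 1.66 and 1.99 under si-snaR-A#2 and 2.57, 2.17 and 1.86 under si-snaR-A#3. The si-snaR-A#1 libraries lay below all others. The log2 fold change was -0.81 ± 0.14 (SE, adjusted p = 3.6e-04) with si-snaR-A#1, 0.11 ± 0.14 (SE, adjusted p = 0.622) with si-snaR-A#2 and 0.38 ± 0.14 (SE, adjusted p = 0.0511) with si-snaR-A#3. DHX58 (LGP2), which regulates the other helicases, was at 0.116 to 0.526 CPM and was not called with any siRNA, with log2 fold changes of -0.05, -0.90 and -0.88.

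MAVS and TBK1 lie downstream of both helicases, and each was lower with si-snaR-A#1. MAVS was at 107, 92.2 and 86.8 CPM in scramble, 73.5, 73.2 and 79.4 under si-snaR-A#1, 94.5, 101 and 101 under si-snaR-A#2 and 91.4, 83.1 and 77.2 under si-snaR-A#3. Its si-snaR-A#1 libraries were all below scramble, by a log2 fold change of -0.34 ± 0.08 (SE, adjusted p = 0.00272), and the other siRNA groups overlapped scramble. TBK1 was at 56.7, 57.9 and 56.7 CPM in scramble, 35.8, 35.8 and 35.7 under si-snaR-A#1, 63, 61.8 and 63.8 under si-snaR-A#2 and 59.3, 57.6 and 59 under si-snaR-A#3. The replicates were close together in every group, and the si-snaR-A#1 libraries stood apart at log2FC -0.67 ± 0.03 (SE, adjusted p = 6.4e-09). TBK1 was slightly higher with si-snaR-A#2, at log2FC 0.14 ± 0.03 (SE, adjusted p = 0.00496), and not called with si-snaR-A#3, at 0.04.

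Of the interferon regulatory factors, IRF2 fell with si-snaR-A#1 while IRF3 and IRF1 were not called there. IRF2, which represses and at some promoters activates interferon-responsive genes, was at 10.1, 11.2 and 10.5 CPM in scramble, 3.94, 4.22 and 3.96 under si-snaR-A#1, 11.6, 11.1 and 11.8 under si-snaR-A#2 and 12.4, 12.2 and 12.8 under si-snaR-A#3. The si-snaR-A#1 libraries were below every other library, and the si-snaR-A#3 libraries were all above scramble. The log2 fold changes were -1.39 ± 0.06 (SE, adjusted p = 4.9e-09), 0.12 ± 0.06 (SE, adjusted p = 0.162) and 0.23 ± 0.06 (SE, adjusted p = 0.0107) for the 3 siRNAs in order. IRF3, the factor activated by TBK1, was at 57.4, 54.6 and 55.2 CPM in scramble, 56.7, 54.9 and 63.3 under si-snaR-A#1, 58.3, 57 and 55.5 under si-snaR-A#2 and 45.7, 49.6 and 50.3 under si-snaR-A#3. Only si-snaR-A#3 was apart from scramble, at log2FC -0.20 ± 0.05 (SE, adjusted p = 0.0144), and this call was lost without scramble replicate 1 or si-snaR-A#3 replicate 1 (adjusted p = 0.0589 to 0.0631). The values under both si-snaR-A#1 and si-snaR-A#2 were log2FC 0.07 and 0.03. IRF3 shares exon bases with BCL2L12 on the opposite strand. IRF1, an early activator of interferon responses, was not called, at log2FC -0.28, -0.31 and -0.15, and IRF7 had at most 4 counts in any library.

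Of the 5 receptor and signalling genes, 4 were lower with si-snaR-A#1, where 23.3% of all genes were, and TYK2 was not called with any siRNA. IFNAR1, a chain of the type I interferon receptor, was at 40.9, 39.9 and 37 CPM in scramble, 28.8, 26.7 and 26.3 under si-snaR-A#1, 31.7, 29.5 and 32.7 under si-snaR-A#2 and 37.3, 35.4 and 37.1 under si-snaR-A#3. Libraries of both si-snaR-A#1 and si-snaR-A#2 were all below scramble, at log2FC -0.53 ± 0.05 (SE, adjusted p = 4.8e-06) and -0.33 ± 0.05 (SE, adjusted p = 6.4e-04), and the value for si-snaR-A#3 was -0.10 ± 0.05 (SE, adjusted p = 0.176). IFNAR2, its partner chain, was at 37.1, 40.9 and 39.9 CPM in scramble, 35.9, 36.7 and 32.4 under si-snaR-A#1, 30.6, 31.3 and 34.9 under si-snaR-A#2 and 39.4, 38.8 and 41.1 under si-snaR-A#3. The differences were small, at log2FC -0.16 ± 0.06 (SE, adjusted p = 0.0441) with si-snaR-A#1 and -0.28 ± 0.06 (SE, adjusted p = 0.00437) with si-snaR-A#2, and the former was lost without scramble replicate 2 or 3, si-snaR-A#1 replicate 1 or 3, si-snaR-A#2 replicate 2 or si-snaR-A#3 replicate 1 or 2 (adjusted p = 0.0542 to 0.174). The mean over the siRNAs was log2FC -0.14 ± 0.05 (SE, adjusted p = 0.0425) and was lost without scramble replicate 2 or 3, si-snaR-A#1 replicate 1 or 3, si-snaR-A#2 replicate 1 or 2 or si-snaR-A#3 replicate 1 or 2 (adjusted p = 0.0504 to 0.196). Exons of IFNAR2 share 2038 bases on the same strand with IFNAR2-IL10RB, and reads could be split between them.

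STAT2, which carries the signal from the receptor to the nucleus, was at 46, 41.5 and 36.4 CPM in scramble, 24.8, 22.9 and 26 under si-snaR-A#1, 36.6, 40.0 and 38.8 under si-snaR-A#2 and 35.8, 34.6 and 33.6 under si-snaR-A#3. The si-snaR-A#1 libraries were below all others, at log2FC -0.75 ± 0.08 (SE, adjusted p = 4.3e-06), and the si-snaR-A#2 libraries overlapped scramble, at -0.10. The si-snaR-A#3 value of log2FC -0.25 ± 0.08 (SE, adjusted p = 0.023) was lost as a call without scramble replicate 1 or 2 or si-snaR-A#3 replicate 2 or 3 (adjusted p = 0.0593 to 0.109). JAK1, a kinase bound to the receptor, was at 106, 99.8 and 98.7 CPM in scramble, 83.4, 79.6 and 75 under si-snaR-A#1, 91.5, 96.2 and 89.5 under si-snaR-A#2 and 108, 112 and 103 under si-snaR-A#3. It was lower with si-snaR-A#1 than in every scramble library, at log2FC -0.36 ± 0.05 (SE, adjusted p = 6.9e-05), while the other siRNAs gave -0.13 and 0.09. Its mean over the siRNAs, log2FC -0.13 ± 0.04 (SE, adjusted p = 0.0214), was lost without scramble replicate 1 or 2 (adjusted p = 0.051 to 0.131). TYK2, the other receptor kinase, had log2 fold changes of 0.02 ± 0.05 (SE, adjusted p = 0.734), 0.04 ± 0.05 (SE, adjusted p = 0.63) and 0.06 ± 0.05 (SE, adjusted p = 0.359).

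The IFIT proteins bind foreign RNA, and all 4 members fell with si-snaR-A#1, where 23.3% of all genes were called lower. IFIT2 was at 0.758, 0.792 and 0.668 CPM in scramble, 0.225, 0.209 and 0.287 under si-snaR-A#1, 0.523, 0.519 and 0.491 under si-snaR-A#2 and 0.799, 0.601 and 0.622 under si-snaR-A#3. Its si-snaR-A#1 libraries were below all others and its si-snaR-A#2 libraries below scramble, at log2FC -1.62 ± 0.18 (SE, adjusted p = 9.2e-06) and -0.53 ± 0.17 (SE, adjusted p = 0.0356). The latter call was lost without scramble replicate 1, 2 or 3 or si-snaR-A#2 replicate 1, 2 or 3 (adjusted p = 0.0509 to 0.109). It was also lost with no filter, with the replicate block, by DESeq2 and by edgeR's exact test. The si-snaR-A#3 libraries overlapped scramble, at log2FC -0.13.

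IFIT3 was at 1.41, 1.14 and 1.4 CPM in scramble, 0.499, 0.60 and 0.294 under si-snaR-A#1, 0.831, 0.647 and 0.998 under si-snaR-A#2 and 1.01, 0.883 and 0.751 under si-snaR-A#3. All 9 siRNA libraries were below all 3 scramble libraries, but only si-snaR-A#1 was called, at log2FC -1.50 ± 0.24 (SE, adjusted p = 2.3e-04), with -0.67 ± 0.23 (SE, adjusted p = 0.0511) and -0.58 ± 0.23 (SE, adjusted p = 0.0829) for the others. IFIT1, which binds RNA that lacks the methylated cap of cellular transcripts, was at 10.0, 10.7 and 10.5 CPM in scramble, 7.99, 7.43 and 6.52 under si-snaR-A#1, 9.34, 9.29 and 9.5 under si-snaR-A#2 and 8.58, 7.8 and 8.61 under si-snaR-A#3. Its 9 siRNA libraries were also all below scramble, and the call held for si-snaR-A#1, at log2FC -0.51 ± 0.08 (SE, adjusted p = 1.4e-04), and for si-snaR-A#3, at -0.32 ± 0.08 (SE, adjusted p = 0.00717). IFIT5 was at 23.1, 24.4 and 22.8 CPM in scramble, 20.6, 20.2 and 19.7 under si-snaR-A#1, 20.3, 19.4 and 21 under si-snaR-A#2 and 23.8, 23.2 and 24.3 under si-snaR-A#3. Its change was small, at log2FC -0.21 ± 0.04 (SE, adjusted p = 0.00167) with si-snaR-A#1 and -0.21 ± 0.04 (SE, adjusted p = 0.00393) with si-snaR-A#2, and its mean over the siRNAs of -0.13 was lost without scramble replicate 2 (adjusted p = 0.101). Reads of the IFIT genes may be shared between copies, and IFIT2 and IFIT3 overlap exons of LIPA.

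The IFITM proteins, which block the fusion of viral and cell membranes, differed by member in which siRNA was called. IFITM2 was at 8.78, 9.58 and 9.27 CPM in scramble, 5.47, 5.92 and 5.15 under si-snaR-A#1, 6.25, 6.36 and 6.25 under si-snaR-A#2 and 8.43, 8.5 and 8.7 under si-snaR-A#3. All 9 siRNA libraries lay below scramble, with calls for si-snaR-A#1, at log2FC -0.74 ± 0.07 (SE, adjusted p = 2.1e-06), and si-snaR-A#2, at -0.55 ± 0.07 (SE, adjusted p = 7.9e-05). IFITM3, which acts in endosomes, was at 1.8, 1.79 and 2.05 CPM in scramble, 1.2, 1.15 and 1.21 under si-snaR-A#1, 1.14, 1.36 and 1.3 under si-snaR-A#2 and 2.11, 2.24 and 1.99 under si-snaR-A#3. It fell under both si-snaR-A#1 and si-snaR-A#2, at log2FC -0.66 ± 0.11 (SE, adjusted p = 3.3e-04) and -0.57 ± 0.11 (SE, adjusted p = 0.00232), and the difference between them was -0.09 ± 0.11 (SE, adjusted p = 0.531). The mean over the siRNAs was lost without scramble replicate 3 (adjusted p = 0.0736). IFITM1, the highest gene per length, ranged from 26.2 to 37.6 CPM and was higher with si-snaR-A#3, at log2FC 0.24 ± 0.05 (SE, adjusted p = 0.00442), and lower with si-snaR-A#2, at -0.17 ± 0.05 (SE, adjusted p = 0.0324). The latter was lost without scramble replicate 2 or 3, si-snaR-A#1 replicate 2 or si-snaR-A#2 replicate 1, 2 or 3 (adjusted p = 0.0535 to 0.153). The IFITM genes are close copies, and reads could be split among them. Exons of IFITM1 and IFITM2 also overlap those of ENSG00000288681 on the same strand.

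OAS3 was the one gene called lower with all 3 siRNAs. It makes the second messenger that activates the ribonuclease RNase L when double-stranded RNA is present. OAS3 (ENSG00000111331, chr12:112938051-112976460, plus strand) was at 7.35, 7.59 and 7.0 CPM in scramble, 2.45, 2.65 and 2.49 under si-snaR-A#1, 5.34, 5.53 and 5.85 under si-snaR-A#2 and 6.03, 5.81 and 5.03 under si-snaR-A#3. Every siRNA library was below every scramble library, and the si-snaR-A#1 libraries were below all others. The log2 fold changes were -1.53 ± 0.09 (SE, adjusted p = 3.2e-08), -0.39 ± 0.08 (SE, adjusted p = 0.00434) and -0.38 ± 0.08 (SE, adjusted p = 0.00476), and the difference of si-snaR-A#2 from si-snaR-A#3 was -0.01 ± 0.09 (SE, adjusted p = 0.94). Its window with the response element letters is printed above. OAS1 was at 0.137 to 0.393 CPM and OASL at 0 to 0.193 CPM, and neither was called. MX1, a GTPase that traps viral nucleocapsids, was at 0.471, 0.428 and 0.384 CPM in scramble, 0.282, 0.303 and 0.221 under si-snaR-A#1, 0.489, 0.54 and 0.413 under si-snaR-A#2 and 0.522, 0.534 and 0.67 under si-snaR-A#3. Its si-snaR-A#1 libraries were below all others, at log2FC -0.67 ± 0.19 (SE, adjusted p = 0.0125), a call not made by edgeR's exact test, and its si-snaR-A#3 libraries above scramble, at 0.43 ± 0.19 (SE, adjusted p = 0.106), which was not called. MX1 had 30 to 87 counts in a library, and its exons overlap those of TMPRSS2.

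ISG15, the ubiquitin-like modifier, was not called with any siRNA, at log2FC -0.02 ± 0.12 (SE, adjusted p = 0.91), -0.17 ± 0.12 (SE, adjusted p = 0.346) and -0.24 ± 0.12 (SE, adjusted p = 0.169) while its promoter holds the response element letters printed above. Its levels ran from 1.26 to 1.71 CPM. USP18, which removes ISG15 from proteins and limits interferon signalling, was at 12.4, 14.2 and 13.5 CPM in scramble, 11.8, 11.4 and 10.3 under si-snaR-A#1, 9.45, 9.64 and 8.84 under si-snaR-A#2 and 12.6, 12.9 and 13.1 under si-snaR-A#3. It fell most with si-snaR-A#2, at log2FC -0.52 ± 0.07 (SE, adjusted p = 1.3e-04), and less with si-snaR-A#1, at -0.26 ± 0.07 (SE, adjusted p = 0.00791), which edgeR's exact test did not call, and the difference between these was 0.26 ± 0.07 (SE, adjusted p = 0.00754). HERC6 was at 8.34, 8.15 and 7.81 CPM in scramble, 5.81, 6.08 and 5.15 under si-snaR-A#1, 8.17, 8.6 and 8.61 under si-snaR-A#2 and 9.39, 9.02 and 9.04 under si-snaR-A#3. The libraries under si-snaR-A#1 were below all others, at log2FC -0.51 ± 0.07 (SE, adjusted p = 7.2e-05). HERC5, the ligase that attaches ISG15 to proteins, was at 22.7 to 28.5 CPM, with log2 fold changes of 0.16 ± 0.06 (SE, adjusted p = 0.0487) with si-snaR-A#2 and 0.18 ± 0.06 (SE, adjusted p = 0.0243) with si-snaR-A#3. The former call was lost without scramble replicate 1 or 2, si-snaR-A#2 replicate 1, 2 or 3 or si-snaR-A#3 replicate 1, 2 or 3 (adjusted p = 0.0548 to 0.187), and the latter without scramble replicate 1 or si-snaR-A#3 replicate 2 or 3 (adjusted p = 0.0682 to 0.107).

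Among the other antiviral proteins, IFI44L and IFI6 fell with si-snaR-A#1, and IFI35 and BST2 rose. IFI44L was at 2.03, 1.62 and 1.92 CPM in scramble, 0.877, 0.674 and 0.868 under si-snaR-A#1, 2.45, 2.38 and 2.0 under si-snaR-A#2 and 2.54, 2.1 and 2.59 under si-snaR-A#3. The level under si-snaR-A#1 was below all others, at log2FC -1.20 ± 0.15 (SE, adjusted p = 2.6e-05), and its si-snaR-A#3 libraries were above scramble, at 0.38 ± 0.14 (SE, adjusted p = 0.0683). IFI6, a mitochondrial and endoplasmic reticulum protein induced by type I interferon, was at 6.24, 6.71 and 7.1 CPM in scramble, 3.87, 4.16 and 3.44 under si-snaR-A#1, 7.09, 7.28 and 6.86 under si-snaR-A#2 and 6.64, 8.17 and 7.62 under si-snaR-A#3. It was lower with si-snaR-A#1, at log2FC -0.81 ± 0.10 (SE, adjusted p = 1.9e-05), and not called with the other siRNAs, at 0.08 and 0.16.

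IFI35 was at 1.46, 1.54 and 1.42 CPM in scramble, 1.95, 1.83 and 1.69 under si-snaR-A#1, 1.63, 1.63 and 1.82 under si-snaR-A#2 and 3.0, 2.32 and 2.55 under si-snaR-A#3. All 9 siRNA libraries were above scramble, and the rise was largest with si-snaR-A#3, at log2FC 0.83 ± 0.12 (SE, adjusted p = 1.9e-04), while si-snaR-A#1 gave 0.31 ± 0.12 (SE, adjusted p = 0.050) and si-snaR-A#2 gave 0.20 ± 0.12 (SE, adjusted p = 0.253). The si-snaR-A#1 call was lost without scramble replicate 1, 2 or 3, si-snaR-A#1 replicate 1 or 2, si-snaR-A#2 replicate 1, 2 or 3 or si-snaR-A#3 replicate 3 (adjusted p = 0.0562 to 0.146). BST2 (tetherin), which holds budding virus on the cell surface, was at 0.671, 0.816 and 0.848 CPM in scramble, 1.1, 0.977 and 1.1 under si-snaR-A#1, 1.04, 0.825 and 0.936 under si-snaR-A#2 and 1.17, 1.33 and 1.21 under si-snaR-A#3. It rose with si-snaR-A#1, at log2FC 0.44 ± 0.14 (SE, adjusted p = 0.0195), and si-snaR-A#3, at 0.67 ± 0.14 (SE, adjusted p = 0.00296), and the former was lost without scramble replicate 1 or si-snaR-A#1 replicate 1 or 3 (adjusted p = 0.0537 to 0.0822). The si-snaR-A#1 call was also lost with no filter and by edgeR's exact test. The mean over the siRNAs, log2FC 0.46 ± 0.12 (SE, adjusted p = 0.00875), was lost without scramble replicate 1 (adjusted p = 0.0603). SAMHD1, which limits the nucleotides available for viral DNA synthesis, was at 43.0 to 51.0 CPM and was not called, at log2FC -0.11, -0.15 and -0.07. ISG20, an exonuclease, varied from 0.275 to 1.04 CPM across libraries and was not called. IFI27 had 0 CPM in 5 libraries and at most 0.128 CPM, and was not called.

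PARP9 and DTX3L, which form a complex of an ADP-ribosyltransferase and a ubiquitin ligase, fell together with si-snaR-A#1. PARP9 (ENSG00000138496, chr3:122527924-122564577, minus strand) was at 5.8, 5.67 and 5.65 CPM in scramble, 2.41, 2.42 and 2.39 under si-snaR-A#1, 4.98, 4.33 and 4.68 under si-snaR-A#2 and 5.89, 5.48 and 4.84 under si-snaR-A#3. DTX3L (ENSG00000163840, chr3:122564338-122575203, plus strand) was at 15.1, 15.3 and 14.5 CPM in scramble, 7.71, 7.91 and 7.48 under si-snaR-A#1, 12.8, 12.4 and 12.8 under si-snaR-A#2 and 16.4, 13.1 and 13.8 under si-snaR-A#3. For both genes the si-snaR-A#1 libraries were below all others and the si-snaR-A#2 libraries were below scramble. The log2 fold changes of PARP9 were -1.25 ± 0.09 (SE, adjusted p = 2.5e-07) with si-snaR-A#1 and -0.29 ± 0.09 (SE, adjusted p = 0.0279) with si-snaR-A#2, and those of DTX3L were -0.96 ± 0.08 (SE, adjusted p = 5.4e-07) and -0.24 ± 0.07 (SE, adjusted p = 0.0313). The si-snaR-A#2 call of PARP9 was lost without scramble replicate 1, 2 or 3, si-snaR-A#1 replicate 2 or si-snaR-A#2 replicate 2 or 3 (adjusted p = 0.0537 to 0.116). That of DTX3L was lost without scramble replicate 1, 2 or 3, si-snaR-A#1 replicate 2 or si-snaR-A#2 replicate 1, 2 or 3 (adjusted p = 0.0562 to 0.104). The 2 genes overlap at their starts on opposite strands, and use of strand in the counting is not given in the sources used here. TRIM21, a receptor for antibody-bound virus, was lower with si-snaR-A#1 at log2FC -0.28 ± 0.08 (SE, adjusted p = 0.016), a call lost without scramble replicate 2 (adjusted p = 0.0775). This TRIM21 call was also lost with no filter, by edgeR's exact test and in the fit of only the groups compared. TRIM25, a ligase that acts on RIG-I, was at log2FC -0.14 ± 0.05 (SE, adjusted p = 0.0427) with si-snaR-A#1, a call lost without scramble replicate 1, 2 or 3, si-snaR-A#1 replicate 2 or 3 or si-snaR-A#2 replicate 1, 2 or 3 (adjusted p = 0.0545 to 0.141).

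Of the antigen-processing genes, TAP1 rose with si-snaR-A#3. TAP1, a transporter of peptides for presentation, was at 9.29, 8.15 and 7.71 CPM in scramble, 9.39, 7.81 and 8.86 under si-snaR-A#1, 6.69, 10.9 and 8.24 under si-snaR-A#2 and 11.2, 12.5 and 12.4 under si-snaR-A#3. It was higher with si-snaR-A#3 than in scramble, at log2FC 0.52 ± 0.14 (SE, adjusted p = 0.0157), which was lost without scramble replicate 2 or 3 or si-snaR-A#3 replicate 2 (adjusted p = 0.0502 to 0.0562). PSMB9, an immunoproteasome subunit, had 2 to 50 counts in a library and was at 0.168, 0.0162 and 0.309 CPM in scramble, 0.0161, 0.0135 and 0.0294 under si-snaR-A#1, 0.194, 0.0498 and 0.117 under si-snaR-A#2 and 0.155, 0.0297 and 0.0162 under si-snaR-A#3. Its si-snaR-A#1 libraries overlapped scramble because scramble replicate 2 was as low as they were, and the log2 fold change of -3.04 ± 1.02 (SE, adjusted p = 0.0273) was lost without scramble replicate 3 or si-snaR-A#1 replicate 1, 2 or 3 (adjusted p = 0.0516 to 0.123). PSMB8, PSMB9 and TAP1 lie in the major histocompatibility complex, for which alternate-haplotype copies of genes exist. Reads assigned to such copies were not analysed here. PML and SP100, which build nuclear bodies, were not called with any siRNA, with log2 fold changes of -0.10, 0.05 and 0.02 for PML.

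**Figure D3:**
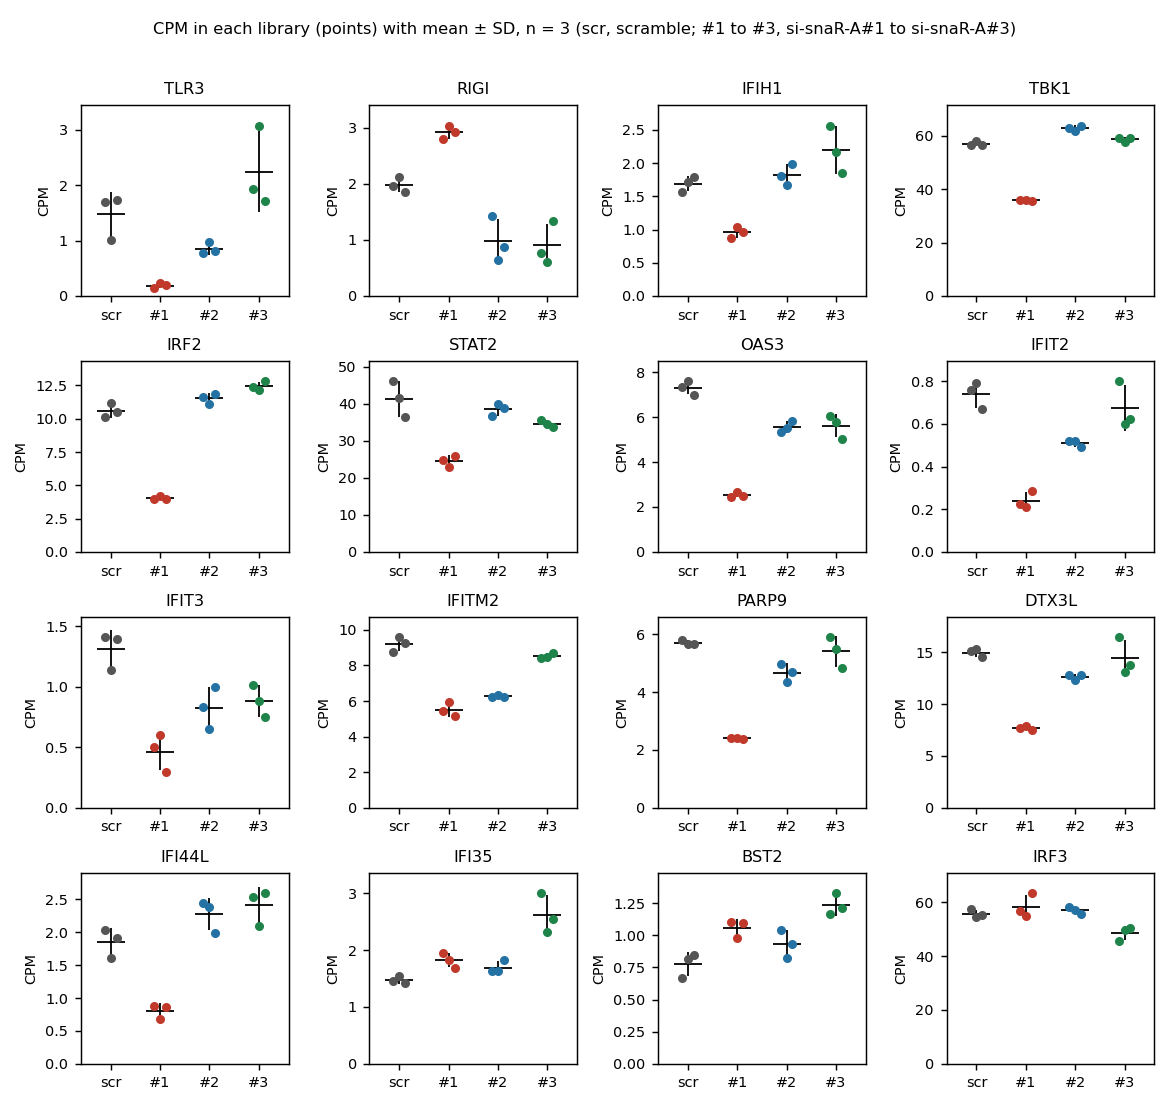
CPM in each library for 16 of the genes, with a linear axis from 0. Points are the 3 libraries of each group and the horizontal mark and bar are the mean ± SD. The si-snaR-A#1 points are below every scramble point for TLR3, IFIH1, TBK1, IRF2, STAT2, OAS3, IFIT2, IFIT3, IFITM2, PARP9, DTX3L and IFI44L. They are above every scramble point for RIGI, IFI35 and BST2.

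The difference between the siRNAs was tested directly. With si-snaR-A#1, 22 genes were lower and 2 higher than with si-snaR-A#2, where 46.7% of all genes were called, 23.0% lower and 23.7% higher. Compared with si-snaR-A#3, 26 were lower and 2 higher, where 48.6% of all genes were called, 24.8% lower and 23.8% higher. With si-snaR-A#2 against si-snaR-A#3, 11 were lower and 2 higher, where 15.6% of all genes were called, 9.03% lower and 6.52% higher. The median log2 fold changes of the 44 genes in these 3 comparisons were -0.17, -0.43 and -0.14. In all, 18 of the 44 genes were lower with si-snaR-A#1 than with scramble and with both other siRNAs, a pattern found in 14.6% of all genes.

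Separation of the libraries gave the same order. The si-snaR-A#1 libraries were all below scramble for 27 genes (27.3% of all genes) and all above for 3 (25.6%). For si-snaR-A#2, 22 genes were all below (22.0%) and 3 all above (21.3%). For si-snaR-A#3, 9 genes were all below (21.4%) and 10 all above (22.0%). The 9 siRNA libraries were together below scramble for 4 genes, IFIT1, IFIT3, IFITM2 and OAS3 (5.50% of all genes), and together above for 1, IFI35 (6.62%).

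**Figure D4:**
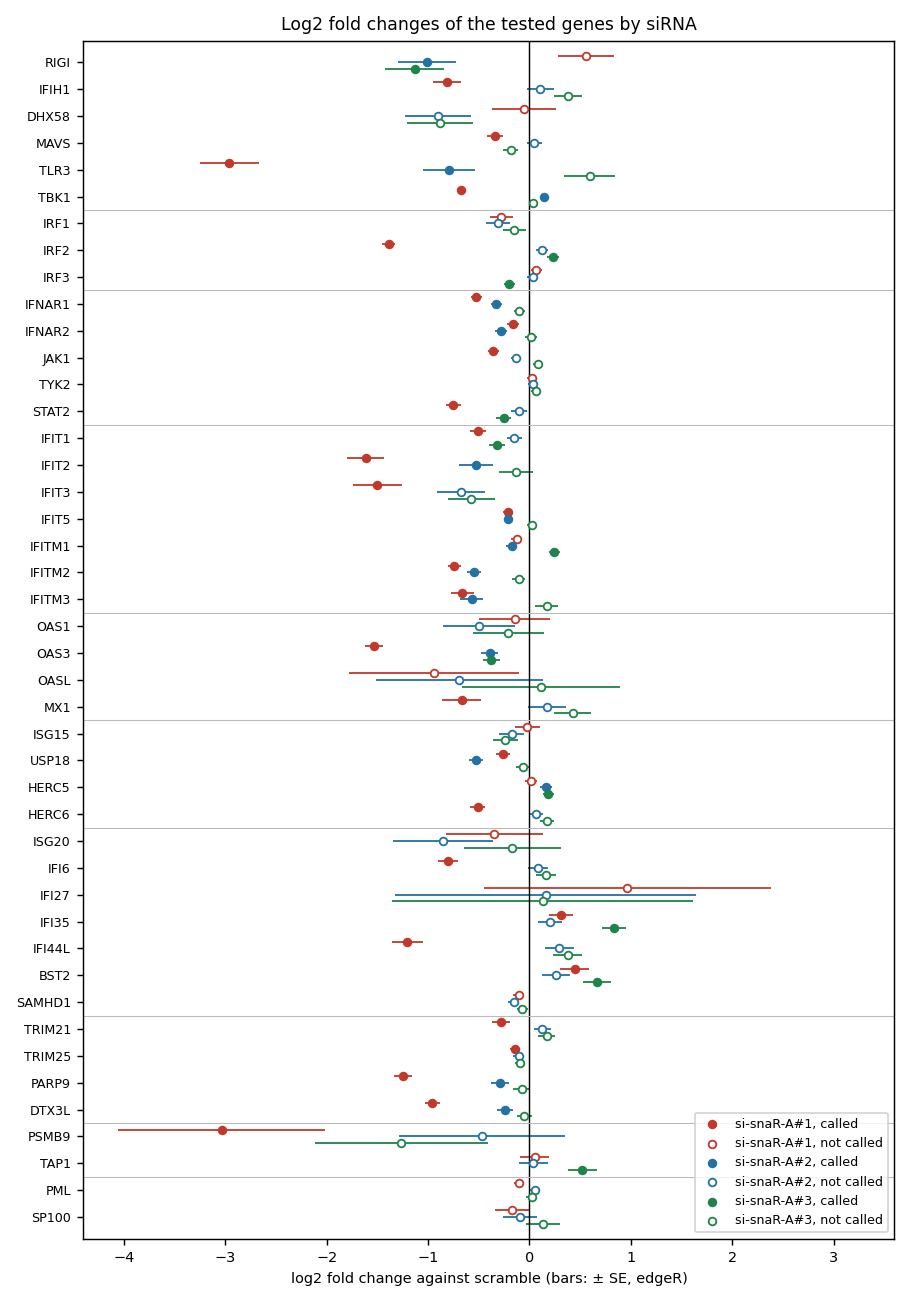
Log2 fold change against scramble of the 44 tested genes for each siRNA, with bars of ± SE from edgeR. Filled points were called at an adjusted p under 0.05 and open points were not. The si-snaR-A#1 points lie left of 0 for TLR3, IRF2, IFIT2, IFIT3, OAS3, PARP9 and IFI44L, while those of si-snaR-A#3 have a median of 0.02.

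Other genes of the pathway were read from a list of 67, of which 44 were tested. With si-snaR-A#1, 8 were higher and 18 lower, against 21.9% and 23.3% of all genes. With si-snaR-A#2, 7 were higher and 4 lower, against 13.7% and 12.1%. Under si-snaR-A#3, 11 were higher and 4 lower, against 16.5% and 13.0%. Averaged over the siRNAs, 6 were higher and 7 lower, against 15.6% and 16.6%. By edgeR's exact test, with the 9 siRNA libraries as 1 group, 4 were higher and 2 lower, and with upper quartile scaling 6 were higher and 11 lower.

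The interferon genes IFNB1, IFNA1, IFNK and IFNL1 had 0 counts in all 12 libraries, which at 3 counts allows up to 0.0242 CPM. CXCL10, a chemokine induced by interferon, had 0 to 11 counts in a library. CCL5, another such chemokine, was tested with 38 to 108 counts and was not called, with log2 fold changes of -0.18 ± 0.28 (SE, adjusted p = 0.655), -0.51 ± 0.29 (SE, adjusted p = 0.224) and -0.60 ± 0.29 (SE, adjusted p = 0.14).

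The groups within this list are given for si-snaR-A#1, with which 23.3% of all genes were lower and 21.9% higher. Of its other interferon-stimulated genes, 13 of 21 tested were lower and 0 higher, with a median log2 fold change of -0.49. Of its other sensing and signalling genes, 2 of 14 were lower and 5 higher, with a median of 0.22, and of its antigen presentation genes 3 of 8 were lower and 3 higher, with a median of -0.16. The 1 tested ligand or chemokine, CCL5, was not called. With all 3 siRNAs, 2.84% of all genes were called lower and 5.16% higher. UBE2L6, the enzyme that carries ISG15 to its ligase, was the one listed gene called lower with all 3 siRNAs. It was at 7.27, 7.77 and 8.15 CPM in scramble, 5.62, 5.54 and 5.34 under si-snaR-A#1, 5.83, 5.73 and 5.75 under si-snaR-A#2 and 5.39, 5.61 and 5.57 under si-snaR-A#3. All siRNA libraries were below scramble, at log2FC -0.49 ± 0.07 (SE, adjusted p = 6.5e-05), -0.42 ± 0.07 (SE, adjusted p = 5.5e-04) and -0.48 ± 0.07 (SE, adjusted p = 1.7e-04). Genes called higher with all 3 were TRAF3, IFNGR2, HLA-E and TAP2. TRAF3, an adaptor between MAVS and TBK1, was at 28.9, 28.7 and 29.2 CPM in scramble, 44.2, 45.9 and 42.5 under si-snaR-A#1, 41.4, 39.1 and 36.9 under si-snaR-A#2 and 43.2, 44 and 44.9 under si-snaR-A#3. The 3 siRNAs gave log2FC 0.61 ± 0.05 (SE, adjusted p = 3.3e-07), 0.44 ± 0.05 (SE, adjusted p = 2.1e-05) and 0.61 ± 0.05 (SE, adjusted p = 1.2e-06). IFNGR2, a chain of the interferon-gamma receptor, had log2FC 0.36, 0.29 and 0.58, HLA-E had 0.31, 0.43 and 0.19, and TAP2, the partner of TAP1, had 0.29, 0.22 and 0.29.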

How the data were processed

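RNA from HEK293T cells was depleted of ribosomal RNA and enriched for poly(A)+ RNA by the study, and sequenced in 3 biological replicates per group. Per the labels, reads were trimmed with Trim Galore and quantified with Salmon against hg38, and the authors deposited estimated counts per Ensembl gene for 12 libraries. Whether strand was used and which transcript release was quantified are not given in the sources used here. Here the estimated counts were rounded to whole numbers, genes with low counts were removed with filterByExpr and libraries were scaled by TMM. All 12 libraries entered 1 quasi-likelihood fit in edgeR 4.0.16 (R 4.3.3), with Benjamini-Hochberg adjustment over 21999 genes. CPM values use the TMM-scaled library size, and 3 counts were taken as the floor. On simulated data for si-snaR-A#1 against scramble, over 21580 genes, changes were given only to genes averaging at least 1 CPM. Of 100 genes changed by 1 on the log2 scale 95% were recovered, and of 100 changed by 0.5, 72%. These rates do not cover the tested genes under 1 CPM, and a smaller share of genes was changed there than was called in the data. Of the genes called in the simulation, 8.24% had not been changed, above the nominal 5%.

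The genes and lists were chosen with earlier results of these data known. All 52 genes are placed, with values in every library for RIGI, IFIH1, MAVS and IRF3, for genes called in the mean of the 3 siRNAs, and for genes called with any siRNA that changed there by at least 0.5 on the log2 scale. From the list of 67, genes that all 3 siRNAs moved the same way are named (called in each), with IFNB1, CXCL10 and CCL5. The alternatives were RLE and upper quartile scaling, no filter, a filter at a mean of 1 CPM, DESeq2 1.42.0, edgeR's exact test, fits of only the groups compared, a replicate block and leaving out each library. The replicate numbers did not pair the samples. Replicate libraries differed by more than sampling noise, the chi-square divided by its degrees of freedom being 12.3 to 58.9.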

Additional observations from a re-analysis of the deposited data

How the results depend on the processing

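No call of a single gene changed sign under any alternative, but the balance of the si-snaR-A#3 calls did, from 6 higher and 5 lower to 5 higher and 8 lower with upper quartile scaling, and it was 10 higher and 5 lower by DESeq2. The count of genes called with si-snaR-A#2 moved beyond 1.5 times, from 15 to 9 without scramble replicate 2, to 8 without si-snaR-A#2 replicate 2 and to 9 without si-snaR-A#2 replicate 3. The edgeR exact test with the 9 siRNA libraries as 1 group gave 1 gene called for the mean, against 19, and 6 of the pathway list, against 13. The other totals stayed within 1.5 times. Counts in 1 direction moved further in some settings, as the pathway list went from 7 to 11 lower for the mean with upper quartile scaling, the lower calls of si-snaR-A#3 from 5 to 3 without scramble replicate 1, and the 2 higher calls among the tested genes in each of 5 comparisons, all but those of si-snaR-A#3 with scramble and with si-snaR-A#1, to between 0 and 4. Leaving out 1 library gave 24 to 28 genes for si-snaR-A#1, 8 to 17 for si-snaR-A#2, 8 to 13 for si-snaR-A#3 and 17 to 21 for the mean. Between siRNAs it gave 21 to 25, 25 to 29 and 10 to 13, and 11 to 16 for the pathway list. Of 138 gene calls in the 7 comparisons, 89 held in every setting and 49 were lost in at least 1. Losses given above for single genes are mainly those without 1 library, and other settings that lose the same calls are not all named. Calls with 1 siRNA that held without any 1 library but not in the exact test were those of MX1 and USP18 with si-snaR-A#1, and the cause was not tested. The fit of only the groups compared was not run for the mean, since it uses all 12 libraries.

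Samples that share a replicate number did not deviate together, with correlations of -0.0657 to 0.0847 over 18 pairs, so the number is not a pairing. With the replicate block the counts were 26, 15, 12 and 19 for the 3 siRNAs and their mean, 25, 29 and 11 between siRNAs, and 15 for the pathway list.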

Other observations

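Further genes of the list of 67 that the naming rule did not single out were chosen after their values were seen. SAMD9, an antiviral factor, was at 1.81, 1.97 and 1.63 CPM in scramble, 0.386, 0.377 and 0.302 under si-snaR-A#1, 1.69, 1.37 and 1.56 under si-snaR-A#2 and 1.76, 1.46 and 1.6 under si-snaR-A#3. Its si-snaR-A#1 libraries lay below all others, with a log2 fold change of -2.34 ± 0.15 (SE, adjusted p = 7.9e-08), while the other siRNAs gave -0.22 and -0.17. DDX60, a helicase that has been linked to RNA sensing, was at 5.23, 5.24 and 5.22 CPM in scramble, 2.22, 2.16 and 1.86 under si-snaR-A#1, 6.42, 6.14 and 5.73 under si-snaR-A#2 and 6.23, 6.4 and 5.66 under si-snaR-A#3, and fell with si-snaR-A#1 by a log2 fold change of -1.33 ± 0.09 (SE, adjusted p = 1.4e-07). EIF2AK2 (PKR), the kinase that halts translation when it binds double-stranded RNA, was at 137, 149 and 124 CPM in scramble, 86.7, 86.9 and 82.3 under si-snaR-A#1, 121, 119 and 127 under si-snaR-A#2 and 164, 145 and 132 under si-snaR-A#3, and was lower with si-snaR-A#1 at log2FC -0.68 ± 0.08 (SE, adjusted p = 1.2e-05), with -0.16 and 0.11 for the other siRNAs.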
